A study of Mus musculus with 3 samples.

Results

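The cells described here are alveolar type 2 cells of the mouse lung with the largest share of transcripts from Scd1 and Fabp5. Barcodes of the early and the late library of HER2-positive cells were kept at 1000 or more unique molecular identifiers (UMIs), 200 or more genes and under 25% mitochondrial UMIs. An alveolar type 2 cell had at least 10% of its UMIs from Sftpc and at least 1 UMI of Slc34a2 or Lamp3. It had no UMI of Pecam1, Cdh5, Pdgfrb or Col1a2, fewer than 8 Fos UMIs per 10000, and fewer than 5 UMIs of Ager, Hopx and Rtkn2 together. Within each library, the members were chosen by their measured Scd1 and Fabp5 UMIs over total UMIs. The top 25% of this ranking, called the high set, held 202 of 805 cells in the early library and 167 of 668 in the late library, or 369 of 1473 in all. The whole series held 19899 barcodes past the depth and mitochondrial filters. The bottom 25%, the low set, held as many cells and served for comparison.

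All mice were MMTV-HER2/Neu animals on the FvB background, in which the mammary tumour virus promoter drives the rat homologue of HER2. The early libraries came from the lungs of mice of 14 to 18 weeks with no palpable tumour, and the late library from mice older than 20 weeks that bore primary tumours. CD45-negative lung cells were sorted by HER2 staining, and each of the 3 groups (early HER2-negative, early HER2-positive, late HER2-positive) is 1 Chromium 3' version 3 library. The number of mice behind a library is not given in the sources used here, so stage, age, animals and library cannot be told apart, and no test, p-value or standard error was computed. The submitters label the HER2-positive libraries as breast cancer cells that have reached the lung. The members carried the alveolar markers that the rule asks for, and the summed level of a mammary marker list of 12 genes was 1.78 UMIs per 1000000 (CPM) in the early high set and 51.3 CPM in the late one. The same list stood at 92.1 and 3300.4 CPM in barcodes of 1 to 100 UMIs, which hold free RNA, and 10 and 4 of its genes were at 0 in the high and the low set alike. Erbb2, the mouse HER2 gene, was at 16.1 CPM in the early high set and 15.8 CPM in the late one, against 21.9 and 34.0 CPM in free RNA. The transgene is the rat homologue, and how many of its reads were counted under the mouse gene is not known. The Erbb2 values therefore do not tell how much HER2 the members held.

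Alveolar type 2 cells make and store pulmonary surfactant, a mixture of phospholipids and proteins, in lamellar bodies, and they need a steady supply of fatty acids and cholesterol for it. Scd1 encodes stearoyl-CoA desaturase, which converts saturated into monounsaturated fatty acids, and Fabp5 encodes a cytosolic fatty acid binding protein. Sterol regulatory element-binding proteins (SREBPs), held back in the endoplasmic reticulum by the Insig proteins when sterols are plentiful, switch on the genes of cholesterol and fatty acid synthesis, often together with the CCAAT-binding factor NF-Y.

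The upstream sequences of 3 sterol-pathway genes are shown because these genes were among the 15 highest in the high set. The letters of the CCAAT box can be read in each, and those of the sterol regulatory element in Hmgcs1 only. The sequences are the 250 bases before a RefSeq start on GRCm38.p6, on the gene's own strand. Hmgcs1 lies on the plus strand at chr13:119690101-119690350, Insig1 on the plus strand at chr5:28071162-28071411 and Msmo1 on the minus strand at chr8:64733579-64733828. Capitals mark matches to TCACNCCAC or to CCAAT on either strand (ATTGG is CCAAT read on the other strand), and no 2 matches overlap in these sequences.
Hmgcs1: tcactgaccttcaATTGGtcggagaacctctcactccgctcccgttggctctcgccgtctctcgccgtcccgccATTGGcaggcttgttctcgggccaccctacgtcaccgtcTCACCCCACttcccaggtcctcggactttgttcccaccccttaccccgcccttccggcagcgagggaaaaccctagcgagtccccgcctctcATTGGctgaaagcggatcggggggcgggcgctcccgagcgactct
Insig1: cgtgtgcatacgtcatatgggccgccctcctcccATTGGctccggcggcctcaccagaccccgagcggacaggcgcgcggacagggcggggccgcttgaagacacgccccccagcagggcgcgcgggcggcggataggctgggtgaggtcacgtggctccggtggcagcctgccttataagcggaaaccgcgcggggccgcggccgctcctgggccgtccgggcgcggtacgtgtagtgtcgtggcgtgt
Msmo1: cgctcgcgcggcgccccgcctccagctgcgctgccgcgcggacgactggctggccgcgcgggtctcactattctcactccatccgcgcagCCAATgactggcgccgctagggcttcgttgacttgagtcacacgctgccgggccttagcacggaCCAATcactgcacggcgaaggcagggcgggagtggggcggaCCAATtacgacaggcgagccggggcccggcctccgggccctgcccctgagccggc

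A CCAAT match stood in at least 1 upstream window of 14 of the 15 sterol-list genes that had a RefSeq window (93.3%), against 37.5% of all 27025 genes with one. The shares were 13 of 22 fatty acid-list genes (59.1%) and 5 of 13 genes of the activated alveolar list (38.5%). Among all genes at least 1.5-fold higher in the high set in both libraries, 24 of 43 had a match (55.8%). Among those lower in both, 22 of 47 had one (46.8%), also above the share of all genes. TCACNCCAC was found for Hmgcs1 alone among the sterol-list genes, for 0 of 22 fatty acid-list genes and for 1.22% of all genes. These counts describe letters in a window of fixed length. Scd1, Fabp5 and Fdps had no entry.

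The values that chose the members are given as a description. Scd1 (chromosome 19, 44394455 to 44407879, minus strand) stood at 2506 CPM in the high and 505.3 CPM in the low set of the early library, and at 3362 and 685.0 CPM in the late library. Fabp5 (chromosome 3, 10012548 to 10016607, plus strand) stood at 3779 and 653.2 CPM in the early library and at 3567 and 760.6 CPM in the late library. All levels are UMIs summed over the cells of a set and scaled to CPM of all their UMIs, and coordinates are from GENCODE M21 on GRCm38. The share of both genes was a continuum without a gap at the threshold. In the early library the lowest member had 44.52 and the highest cell outside had 44.51 UMIs of the 2 genes per 10000, and in the late library the values were 45.80 and 45.72. The median over all type 2 cells was 29.5 and 30.5 per 10000, and the highest cell reached 142 and 193. Reads of Scd1 could also come from its close relatives Scd2 to Scd4, and those of Fabp5 from near-identical copies, so the split between such genes is uncertain.

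As a description of where the ranking genes stood, they were set beside 2 other gated cell classes of the same libraries. Endothelial cells, gated on at least 3 UMIs of Pecam1 and Cdh5 and none of Slc34a2 and Lamp3, held 12.5 and 17.2 CPM of Scd1 in the early and late library, and 59.1 and 75.2 CPM of Fabp5. Mesenchymal cells, gated likewise on Pdgfrb and Col1a2, held 18.7 and 18.9 CPM of Scd1. Free RNA held 749 and 1124 CPM of Scd1 and 1348 and 1423 CPM of Fabp5, between the low and the high set in both libraries. Type 2 cells left out for high Fos had a median of 27.8 and 25.3 UMIs of the 2 genes per 10000, and those left out for Ager, Hopx and Rtkn2 had 30.7 and 30.6, against 29.5 and 30.5 in the cells kept.

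Sftpc, Slc34a2 and Lamp3, which the rule asks of every cell in both sets, are given as a description. Sftpc, which encodes surfactant protein C, was at 220444 and 204244 CPM in the early high and low sets and at 225186 and 209731 CPM in the late ones. Free RNA itself held 145940 CPM of Sftpc (early library) and 162883 CPM (late library), above the 10% share that the rule asks. It also held 1590 and 2266 CPM of Slc34a2, so these limits alone do not part type 2 cells from free RNA. Gated endothelial cells held 854 and 1221 CPM of Sftpc, and gated mesenchymal cells 1101 and 1404 CPM. How far free RNA helped barcodes to pass the rule was not tested. Slc34a2, a phosphate transporter of type 2 cells, had a high over low ratio of 1.31 (95% counting interval 1.25 to 1.37) in the early and 1.20 (1.15 to 1.25) in the late library, and Lamp3, a lamellar body membrane gene, 1.43 (1.31 to 1.56) and 1.18 (1.09 to 1.27). The median cell of the high set had 5425.5 UMIs against 4225.5 in the low set of the early library, and 7656 against 7901 in the late library. Median mitochondrial shares were 8.02% against 9.88% and 7.47% against 8.73%. Depth thus went with rank in the early library and not in the late one, and its part in the results was not tested. The sets of the 2 libraries shared no barcode.

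The limit on Ager, Hopx and Rtkn2 removed most candidates, from 2864 to 805 in the early and from 3481 to 668 in the late library. Ager, the leading alveolar type 1 marker, stood at 1428 and 1245 CPM in the removed cells, by the rule lower at 439 and 314 CPM in the kept cells and at 1251 and 944 CPM in free RNA. The kept cells were shallower, with medians of 5124 and 7900.5 UMIs against 7362 and 8919 in the removed cells. Leading results below are therefore also given for all type 2 cells without this limit, with 716 cells a set in the early and 871 in the late library, an alternative chosen after seeing the data.

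A gene was called at a ratio of at least 1.5 in the same direction in both libraries, with at least 50 UMIs over the pair of sets in each. Of 3773 genes measured, 57 were higher in the high set (1.51%) and 63 lower (1.67%), and with scaling by trimmed means of M values (TMM) the split was 75 higher and 50 lower. Within single libraries, 202 genes were higher (5.24%) and 250 lower (6.48%) of 3856 measured in the early library, and 205 were higher (4.58%) and 292 lower (6.53%) of 4472 in the late library. In the early library alone 194 of the 3773 genes were higher and in the late library 160, so the 57 shared genes were 29.4% and 35.6% of each list, while 7 genes called higher in the early library were called lower in the late library. Every ratio below comes from cells ranked by the 2 genes, so the ratios are descriptions of that ranking, and their intervals cover counting error only.

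**Figure D1:**
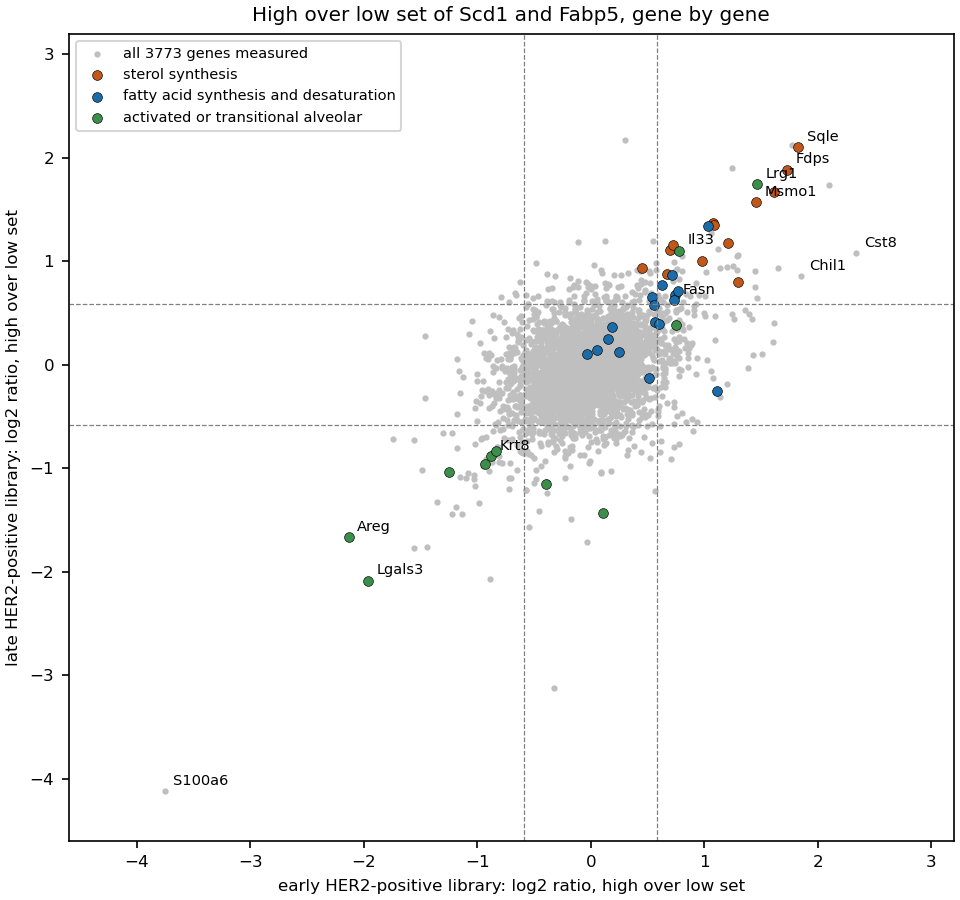
Each point is a gene measured in both libraries, with its log2 ratio of high over low set in the early (x axis) and late (y axis) library of HER2-positive cells. Dashed lines mark 1.5-fold, all 13 sterol synthesis genes lie above 0 on both axes, and S100a6 stands alone at the lower left.

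Genes of sterol synthesis were higher as a group. Of 23 listed genes 13 had enough UMIs to be measured, and 12 of these 13 were called higher and 0 lower, with median log2 ratios of 1.09 in the early and 1.17 in the late library against −0.03 over all genes in each. The share called higher over all genes was 1.51%. The UMI minimum is taken over the high and low set together, so a sparse gene could pass it through the set in which it was higher. Between libraries, 18 listed genes reached the minimum in the high sets and 9 in the low sets. The 12 of 13 therefore describes the measured genes only. Summed over all 23 genes, including those too low to be measured singly, the list stood at 1238 CPM in the high and 563.6 CPM in the low set of the early library, and at 1243 and 507.9 CPM in the late library. Without the alveolar type 1 limit all 13 genes were called higher. With each cell thinned to 1000 UMIs before ranking, 3 of the 13 were at least 1.5-fold higher and 9 were above a ratio of 1 in both libraries, whatever their UMI count, with medians of 0.41 and 0.87. The measured gene that missed the call was Acat2, an acetyl-CoA acetyltransferase gene, with ratios of 1.37 (0.851 to 2.24) and 1.91 (1.16 to 3.2).

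At the start of the pathway, Hmgcs1, HMG-CoA synthase, was at 147.2 and 63.5 CPM in the early high and low sets and at 116.1 and 51.5 CPM in the late ones, ratios of 2.32 (1.72 to 3.16) and 2.25 (1.68 to 3.06). In the mevalonate branch, Pmvk, phosphomevalonate kinase, had ratios of 2.11 and 2.59, and Idi1, the isopentenyl diphosphate isomerase, 2.12 and 2.55. Mvk and Mvd, the remaining kinase and the decarboxylase of this branch, were below the 50 UMIs in at least 1 library.

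Fdps, which makes farnesyl diphosphate, ranked first, by the smaller of the 2 libraries' ratios, among genes of at least 50 CPM in a set of each library. It was at 169.6 and 51.0 CPM in the early high and low sets and at 132.7 and 35.9 CPM in the late ones, and free RNA held 84.7 and 83.7 CPM. The high set exceeded the low one in both libraries, with ratios of 3.32 (2.42 to 4.65) and 3.70 (2.65 to 5.24). Without the type 1 limit the ratios were 3.58 (3.13 to 4.09) and 3.99 (3.55 to 4.49). In single cells Fdps was sparse: 93 of 202 and 81 of 167 cells of the high set had no Fdps UMI, against 163 of 202 and 127 of 167 in the low set.

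Among the later, sterol-specific steps, Sqle, the squalene epoxidase, was at 48.2 and 13.5 CPM in the early and at 40.3 and 9.36 CPM in the late library, ratios of 3.56 (1.92 to 7.11) and 4.30 (2.26 to 8.87). Msmo1, a methylsterol oxidase, had ratios of 2.75 (1.79 to 4.32) and 2.97 (1.97 to 4.59). Cyp51 and Fdft1, lanosterol demethylase and squalene synthase, were nearer the threshold at 1.66 and 2.23 and at 1.63 and 2.15. Stard4, a cholesterol carrier, had ratios of 1.6 (0.929 to 2.81) and 1.84 (1.13 to 3.06). When each cell was thinned to 1000 UMIs, few UMIs of these genes were left, and the late log2 ratio of Sqle was −0.30, while that of Stard4 in the early library was −0.08.

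Of 25 listed genes of fatty acid synthesis and desaturation 17 were measured, 6 were called higher and 0 lower, with medians of 0.57 and 0.41 (log2). Over all genes 1.51% were called higher. With each cell thinned to 1000 UMIs, 1 of the 17 was at least 1.5-fold higher in both libraries, with medians of 0.50 and 0.25. Fasn, fatty acid synthase, was at 473.9 and 284.4 CPM in the early and at 417.8 and 270.7 CPM in the late library, ratios of 1.67 (1.44 to 1.94) and 1.54 (1.35 to 1.77). Without the type 1 limit the early Fasn ratio was 1.48 (1.39 to 1.58), below the call. Acaca, the acetyl-CoA carboxylase before it, had ratios of 1.67 and 1.59. Mid1ip1, which encodes an activator of that carboxylase, was at 489.9 and 287.5 CPM in the early and at 554.5 and 337.8 CPM in the late library. Me1, a malic enzyme that makes NADPH, had ratios of 1.54 (1.08 to 2.22) and 1.71 (1.30 to 2.26).

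Of the desaturases, Fads1, the delta-5 desaturase of polyunsaturated fatty acids, had ratios of 2.05 (1.45 to 2.94) and 2.54 (1.82 to 3.59). Scd2, a relative of Scd1, was at 349.8 and 212.5 CPM in the early and at 469.9 and 258.2 CPM in the late library. Acly, which cleaves citrate to acetyl-CoA, stood on either side of the threshold at 1.46 (1.15 to 1.85) and 1.57 (1.31 to 1.89). Elovl1, an elongase, was at 1.48 and 1.33, and Tkt, the transketolase, at 1.47 and 1.49. Acss2, which makes acetyl-CoA from acetate, went in opposite directions at 2.16 (1.25 to 3.90) and 0.840 (0.517 to 1.36). Elovl6, a usual partner of Scd1 in fatty acid synthesis, had 0 UMIs in the high and low sets of both libraries.

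**Figure D2:**
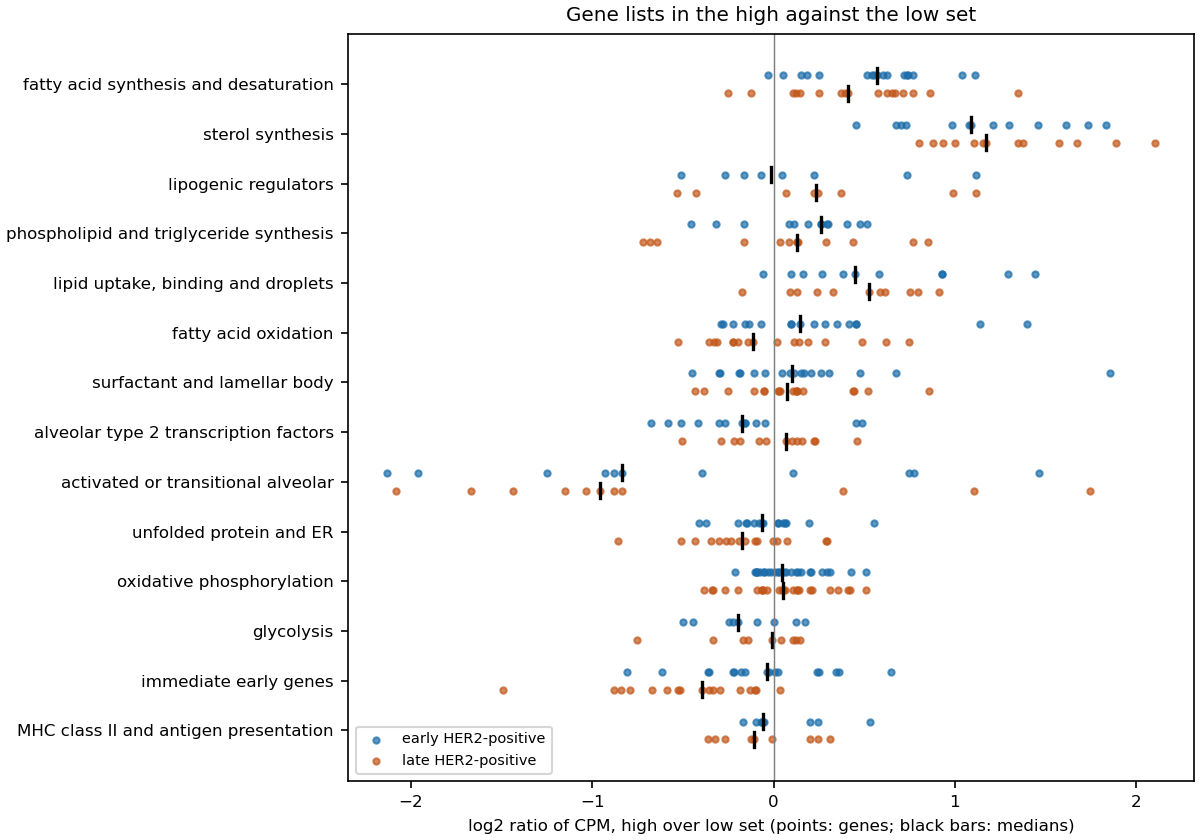
Log2 ratios of high over low set (x axis) for the measured genes of 14 gene lists, by library, with the median of each list as a black bar. The sterol list has medians of 1.09 and 1.17, the fatty acid list 0.57 and 0.41, and the activated or transitional alveolar list −0.84 and −0.96.

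Among the genes that govern these pathways, Srebf1 and Srebf2, which encode the SREBPs, had ratios of 0.892 (0.638 to 1.25) and 1.18 (0.913 to 1.54), and of 1.03 (0.694 to 1.54) and 1.29 (0.904 to 1.85), all with intervals that include 1. Insig1, a sterol-regulated brake on SREBP processing and itself an SREBP target, was at 126.7 and 58.3 CPM in the early and at 142.2 and 65.5 CPM in the late library, ratios of 2.17 (1.58 to 3.01) and 2.17 (1.67 to 2.85). Scap, the SREBP escort, had ratios of 1.66 (0.900 to 3.18) and 1.99 (1.23 to 3.29), the former on few UMIs. Insig2 was at 1.17 and 1.05. Of the 18 genes on this list 8 were measured, 2 were called higher and 0 lower, where 1.51% of all genes were called higher. Cebpa, a regulator of lung lipid genes, had ratios of 0.831 and 1.17. Transcript levels do not measure the processing of SREBP proteins.

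Among genes of lipid uptake, binding and storage, 11 of 26 were measured and 4 were called higher and 0 lower. The share called higher over all genes was 1.51%. Dbi, the acyl-CoA binding protein, was at 805.9 and 424.0 CPM in the early and at 954.1 and 550.0 CPM in the late library, ratios of 1.90 (1.69 to 2.14) and 1.73 (1.58 to 1.91). Plin2, a lipid droplet coat protein, had ratios of 1.90 (1.49 to 2.45) and 1.5 (1.24 to 1.82). Lpl, lipoprotein lipase, had 2.72 (1.55 to 5.01) and 1.69 (1.08 to 2.68). Fabp12, a member of the fatty acid binding protein family, was at 2.45 and 1.88. Cd36, a fatty acid transporter, was at 784.4 and 815.8 CPM in the early and at 1021 and 1152 CPM in the late library, so the high set did not hold more of it.

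Of 24 phospholipid and triglyceride genes 13 were measured and 0 were called either way, where 1.51% of all genes were called higher and 1.67% lower, so a list of this size could hold no call at the background share. Lpcat1, which remodels phosphatidylcholine into the surfactant form, was at 1415 and 1016 CPM in the early and at 1309 and 965.8 CPM in the late library, ratios of 1.39 (1.29 to 1.51) and 1.36 (1.26 to 1.46). Chka, a choline kinase at the start of phosphatidylcholine synthesis, had ratios of 0.728 (0.621 to 0.854) and 0.641 (0.533 to 0.769). Of 24 fatty acid oxidation genes 17 were measured and 0 were called either way, with medians of 0.15 and −0.11. The lists of oxidative phosphorylation, glycolysis, endoplasmic reticulum folding and MHC class II, with 26, 9, 16 and 9 genes measured, also had 0 called in either direction.

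Surfactant and lamellar body genes moved in both directions by small ratios, with 1 of 18 measured genes called. Over all 3773 genes 1.51% were called higher and 1.67% lower, so 1 call is not read as a result about the list. Sftpb had ratios of 1.08 (1.05 to 1.12) and 1.03 (0.995 to 1.06), Abca3, the lamellar body lipid transporter, 1.20 (1.08 to 1.34) and 1.08 (0.978 to 1.19), and Sftpa1 0.928 and 0.841. Sftpd, surfactant protein D, was at 4655 and 5728 CPM in the early and at 3573 and 4826 CPM in the late library, lower in the high set in both. Ctsh, cathepsin H, which takes part in processing surfactant protein B, had ratios of 0.731 and 0.768. Cxcl15, a lung chemokine of type 2 cells, was at 7759 and 4860 CPM in the early and at 9330 and 6494 CPM in the late library, ratios of 1.6 and 1.44. The called gene was Chil1, a chitinase-like secreted protein, at 218.6 and 60.4 CPM in the early and at 225.1 and 124.0 CPM in the late library; ranked by Fabp5 alone its late log2 ratio was −0.22. Of 16 type 2 transcription factors 13 were measured and 0 called, among them Nkx2-1 at 0.811 and 0.880 and Etv5 at 0.898 and 1.07. At the share over all genes a list of this size could hold no call.

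Other genes named as highest were not on the lipid lists. Lrg1, a secreted leucine-rich glycoprotein, was at 141.0 and 51.1 CPM in the early and at 133.5 and 39.8 CPM in the late library, ratios of 2.76 (1.99 to 3.89) and 3.35 (2.44 to 4.68), and without the type 1 limit the early ratio was 4.53 (3.86 to 5.35). Over all alternatives its log2 ratio ran from 0.41 to 2.18 (early) and from 0.52 to 2.53 (late). A single cell held 12.7% and 14.8% of its UMIs in the high sets, and 12.2% and 17.6% in the low sets. Hdc, which makes histamine, had ratios of 2.46 (1.95 to 3.12) and 2.09 (1.73 to 2.52), and Pon1, an esterase carried on lipoproteins, 2.44 and 2.07. Itih4, a secreted inhibitor family member, was at 2.37 and 3.73. Bex2 was at 416.8 and 132.3 CPM in the early and at 374.4 and 195.0 CPM in the late library. Cst8, a cystatin, had 5.06 (2.65 to 10.6) and 2.12 (1.46 to 3.1). Il33, an alarmin made by type 2 cells, had 1.71 (1.36 to 2.18) and 2.15 (1.80 to 2.58).

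**Figure D3:**
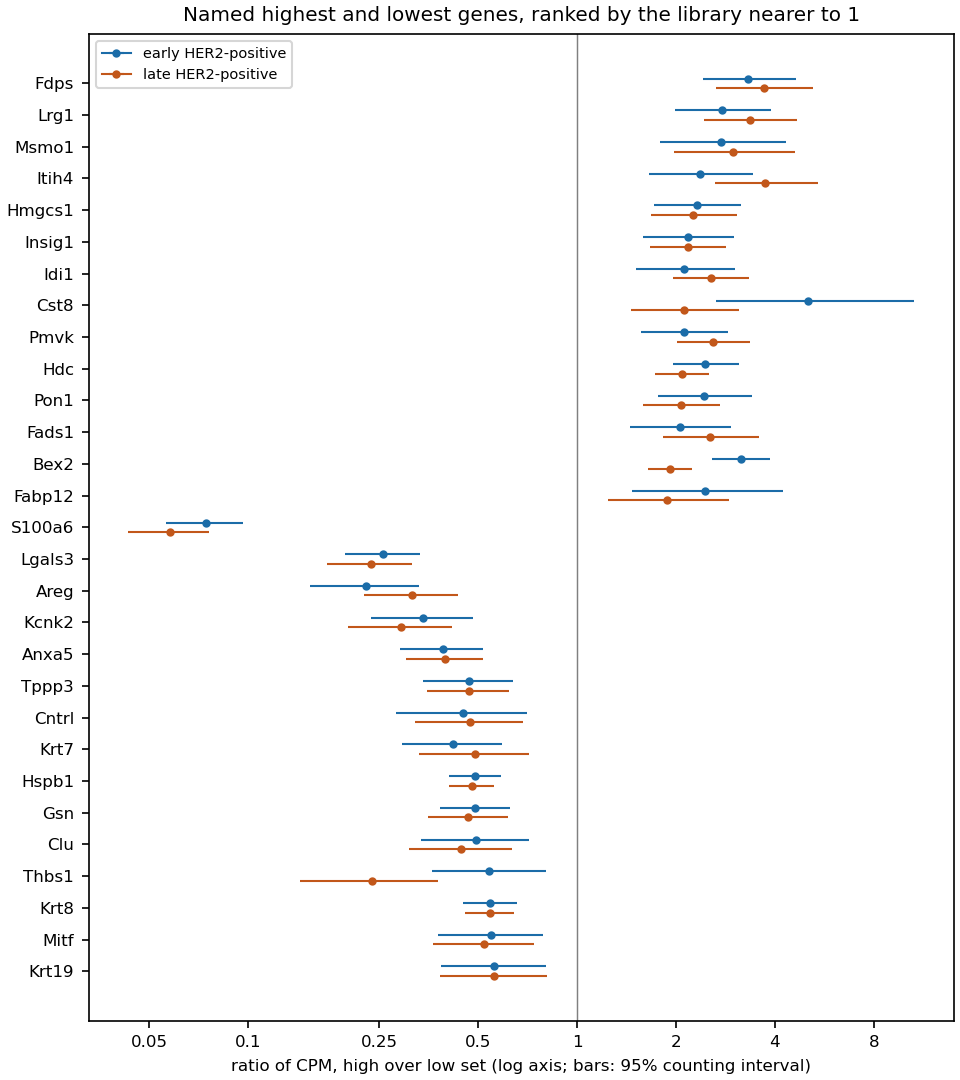
Ratio of CPM in the high over the low set (log axis) with 95% counting intervals, for genes named among the 15 highest and 15 lowest, in the early and the late library of HER2-positive cells. Fdps stands first among the higher genes at 3.32 and 3.70, and S100a6 is lowest at 0.0743 and 0.0577.

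Genes known as markers of injured type 2 cells, or of cells on the way from type 2 to type 1, were mostly lower in the high set. Of 19 genes on the activated or transitional alveolar list 11 were measured, 6 were called lower in the high set and 2 higher. Over all genes 1.67% were called lower and 1.51% higher. The list had medians of −0.84 and −0.96, or −0.27 and −0.63 with each cell thinned to 1000 UMIs. The 2 higher genes were Lrg1 and Il33, given above. Lgals3, galectin-3, was at 67.8 and 263.6 CPM in the early and at 45.8 and 194.2 CPM in the late library, ratios of 0.257 (0.196 to 0.334) and 0.236 (0.174 to 0.315). Areg, the growth factor amphiregulin, had 0.228 (0.154 to 0.330) and 0.315 (0.225 to 0.433). The keratins Krt8, Krt7 and Krt19 had ratios of 0.543 and 0.543, 0.420 and 0.489, and 0.560 and 0.560, and Sfn, stratifin, 0.524 and 0.515. Krt18 was at 0.760 in the early and 0.450 in the late library, and Cdkn1a, a cell cycle inhibitor, at 1.08 (0.692 to 1.68) and 0.370 (0.253 to 0.531).

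S100a6, a calcium-binding protein of the S100 family, was the gene furthest below 1. It was at 55.3 and 744.9 CPM in the early and at 42.7 and 739.6 CPM in the late library, ratios of 0.0743 (0.0563 to 0.0964) and 0.0577 (0.0430 to 0.0759). Without the type 1 limit they were 0.107 (0.0959 to 0.120) in the early and 0.0891 (0.0807 to 0.0982) in the late library. Free RNA held 624 and 481 CPM, so the high set lay far below it. The low set was uneven: 111 of 202 and 97 of 167 of its cells had no S100a6 UMI, and 12 and 6 cells held 50% of its S100a6 UMIs. In the high set 175 of 202 and 141 of 167 cells had none.

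The remaining lower genes named included Anxa5, a phospholipid-binding annexin, at 0.390 and 0.398, Kcnk2, a potassium channel, at 0.340 and 0.292, and Hspb1, a small heat shock protein, at 0.489 and 0.479. Gsn, gelsolin, was at 0.490 and 0.467, Tppp3 at 0.468 and 0.468, Clu, clusterin, at 0.493 and 0.445, Thbs1, thrombospondin, at 0.542 and 0.238, and Cntrl and Mitf at 0.450 and 0.473 and at 0.546 and 0.522. Gsn, Hspb1 and Tppp3 stood higher in free RNA (726, 871 and 244 CPM in the early library) than in either set, in both libraries. So did Anxa5 (190 and 163 CPM in early and late free RNA), Krt7 (113 and 78.2 CPM) and Krt19 (92.1 and 82.2 CPM). Thbs1 did so in the early library only (78.0 CPM), and Clu in the late library only (109 CPM).

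Markers of other lung cells were summed over both sets. Endothelial markers summed to 91.0 and 100.0 CPM in the early high and low sets, against 2614 CPM in free RNA, and to 84.5 and 77.2 CPM in the late ones. Mural and fibroblast markers summed to 33.9 and 104.2 CPM and to 22.1 and 45.2 CPM, higher in the low set in both libraries. Alveolar type 1 markers outside the rule summed to 519.4 and 771.0 CPM and to 465.2 and 589.8 CPM, also higher in the low set. Airway markers summed to 1232 and 720.9 CPM and to 2732 and 1940 CPM, higher in the high set, against 11564 and 15249 CPM in free RNA. Scgb1a1 alone held 1312 of the 1380 airway UMIs in the early high set and 3326 of 3459 in the late one. A single cell held 10.9% and 15.6% of the Scgb1a1 UMIs in the high sets, and 12.1% and 22.8% in the low sets. Of 2 airway markers measured, 1 was above a ratio of 1 in the early library and 2 in the late one. Of 13 leukocyte markers 10 were at 0 in both sets of each library, and nearly all of the rest was Lyz1, a lysozyme that mouse type 2 cells also express. The estimated share of free RNA was 2.30% in the high and 3.78% in the low set of the early library, and 2.71% and 2.87% in the late one. With this share taken off each sum, 63 genes were called higher and 70 lower, against 57 and 63 in the main values. The part of other cells' RNA in the ratios was not tested.

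When cells without any S100a6 UMI were ranked again, an alternative chosen after seeing the data, 148 and 122 cells made up a set. Fdps then had ratios of 3.12 (2.17 to 4.58) and 3.40 (2.37 to 4.96), and 11 of the 13 sterol genes were at least 1.5-fold higher in both libraries. The lower genes moved more. Lgals3 had 0.661 (0.404 to 1.07) and 0.407 (0.242 to 0.666), the activated list had medians of −0.08 and −0.68, and the counts over all genes were 36 higher and 25 lower. Krt19 and Thbs1 turned to higher in the early library, at log2 ratios of 0.44 and 0.37.

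The course along the ranking differed between genes. Over 10 bins of equal size from lowest (bin 1) to highest share (bin 10), Fdps in the early library was at 57.1 CPM in bin 1, 61.4 CPM in bin 5 and 194.2 CPM in bin 10, and in the late library at 32.1, 73.6 and 169.3 CPM. It was thus nearly level over the lower bins of the early library and climbed from bin 1 in the late library. Fasn went from 242.6 to 541.4 CPM and from 244.1 to 476.1 CPM between bin 1 and bin 10. S100a6 was at 1210 CPM in bin 1, 368.4 CPM in bin 5 and 75.4 CPM in bin 10 of the early library, and at 1090, 120.8 and 25.9 CPM in the late library. Krt8 was at 442.4 CPM in bin 1 and 232.9 CPM in bin 2 of the early library and at 430.4 and 264.0 CPM in the late library, so much of its difference lay in bin 1.

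**Figure D4:**
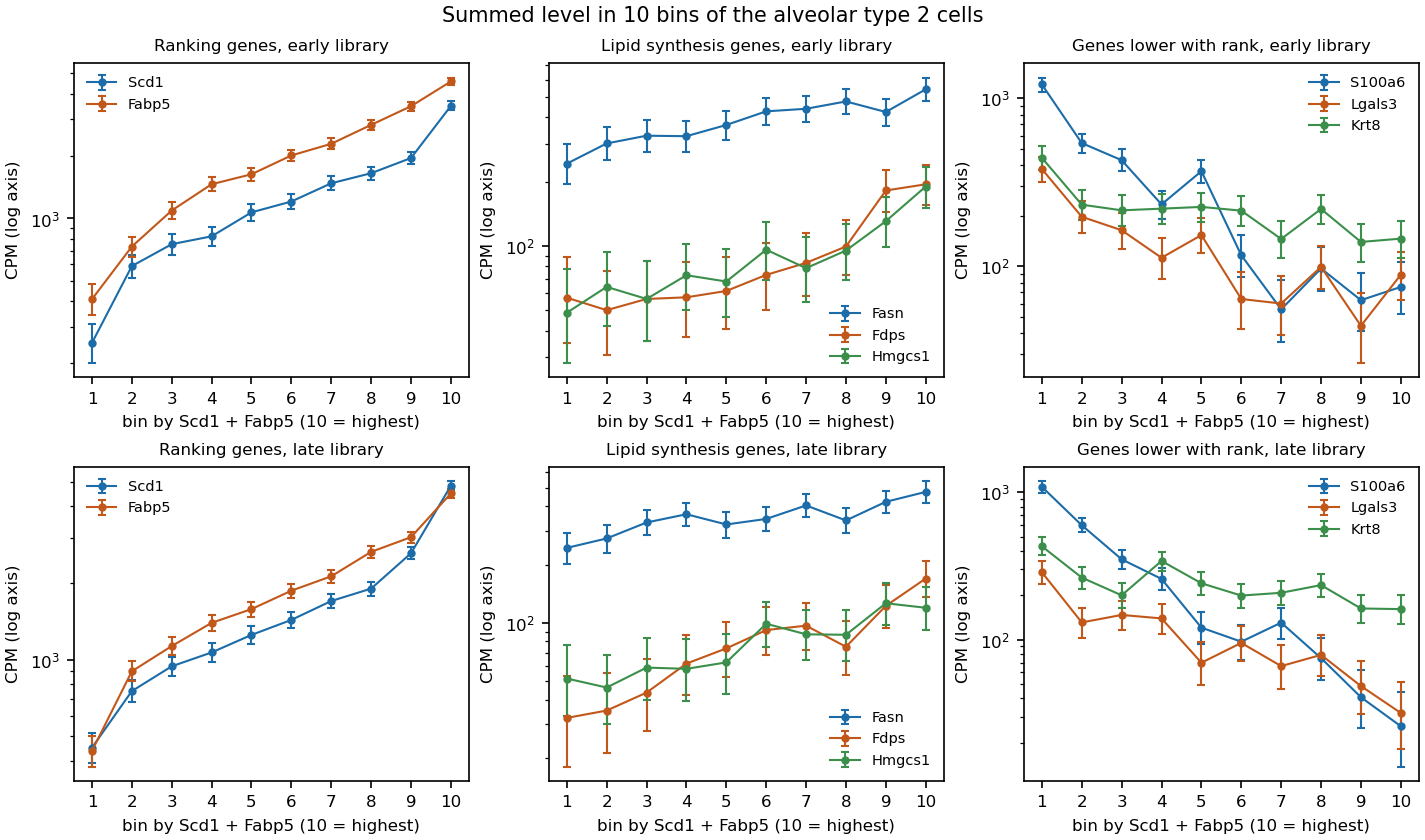
Summed level in CPM (log axis) in 10 bins of type 2 cells ordered by their Scd1 and Fabp5 share (x axis), with 95% counting intervals, for the early (upper row) and late (lower row) library of HER2-positive cells. The ranking genes climb by construction, Fdps goes from 57.1 to 194.2 CPM in the early library, and S100a6 goes from 1210 to 75.4 CPM.

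The measured shares of Scd1 and Fabp5 went together only in part. Over single cells Spearman's rho between their shares was 0.27 in 805 early cells and 0.33 in 668 late cells, where the 2 values share a library and the cell's depth. Scd1 stood at 1354 and 1685 CPM in these cells, whose median depth was 5124 and 7900.5 UMIs, so a cell held few Scd1 UMIs. Counting error in single cells can lower rho and the overlap of the rankings, and how far it did was not tested. In cells ranked by Scd1 alone, Fabp5 was at 2676 CPM in the top 25% and 1720 CPM in the bottom 25% of the early library, a ratio of 1.56 (1.47 to 1.65), and the late ratio was 1.83 (1.73 to 1.94). In cells ranked by Fabp5 alone, Scd1 had ratios of 1.91 (1.77 to 2.07) and 2.30 (2.16 to 2.46). In the early library 78 cells lay in the top 25% of both rankings, and in the late library 76.

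The companion genes differed between these rankings, which use overlapping cells, so the values are set side by side without a test. The 13 sterol genes here are those measured under the ranking by both genes, so they are not a fresh list. Over all genes, 41 of 3784 were called higher when ranked by Fabp5 and 41 of 3720 when ranked by Scd1. Ranked by Fabp5, 10 of 13 sterol genes were at least 1.5-fold higher in both libraries, with medians of 1.40 and 1.18. Fdps had ratios of 3.25 (2.34 to 4.58) and 2.99 (2.18 to 4.18). Ranked by Scd1, 6 of 13 were at least 1.5-fold higher in both, with medians of 0.57 and 0.83, and Fdps had 1.88 (1.41 to 2.52) and 2.07 (1.54 to 2.79). Fasn went the other way, with 1.93 (1.67 to 2.24) and 1.56 (1.36 to 1.78) under Scd1 and 1.41 (1.22 to 1.63) and 1.28 (1.12 to 1.46) under Fabp5. Lrg1 had 4.44 (3.04 to 6.63) and 4.21 (3.06 to 5.89) under Scd1 and 1.88 (1.39 to 2.57) and 1.44 (1.05 to 1.98) under Fabp5. S100a6 was low under both, at 0.110 and 0.111 under Scd1 and at 0.148 and 0.128 under Fabp5.

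The high sets of the early and the late library were compared next. Of 4209 genes measured, 200 were higher in the early high set by at least 1.5-fold (4.75%) and 238 lower (5.65%). Of 18 sterol genes measured 0 were higher and 1 was lower, Idi1 with an early over late ratio of 0.659 (0.522 to 0.829), and of 18 fatty acid genes 2 were higher (Fads3 and Acss2) and 1 was lower (Hacd3). Together 2 of 36 were higher and 2 lower, near the shares over all genes. Fdps had a ratio of 1.28 (1.03 to 1.58) and Fasn 1.13 (1.0 to 1.28). Each ratio compares 1 library with 1 library.

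Immediate early genes, which rise within minutes of a stimulus such as tissue dissociation, were higher in the early high set. Of 17 measured, a list without Fos, which the rule limits, 10 were higher and 0 lower, with a median log2 ratio of 0.65. Atf3, a stress-induced transcription factor, was at 72.3 CPM in the early high set and 12.6 CPM in the late one, a ratio of 5.72 (3.32 to 10.5). Junb was at 313.2 and 160.3 CPM, a ratio of 1.95 (1.64 to 2.33), Nr4a1 at 1.85 (1.35 to 2.55) and Egr1 at 1.67 (1.34 to 2.07). In the low set 4 of 18 were higher and 2 lower, with a median of 0.21, where 200 of 4160 genes were higher (4.81%), and Atf3 had 2.50 (1.49 to 4.30) and Egr1 0.885 (0.714 to 1.09). The difference between the sets was not tested. Free RNA moved the same way for Atf3, at 131 and 51.4 CPM.

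**Figure D5:**
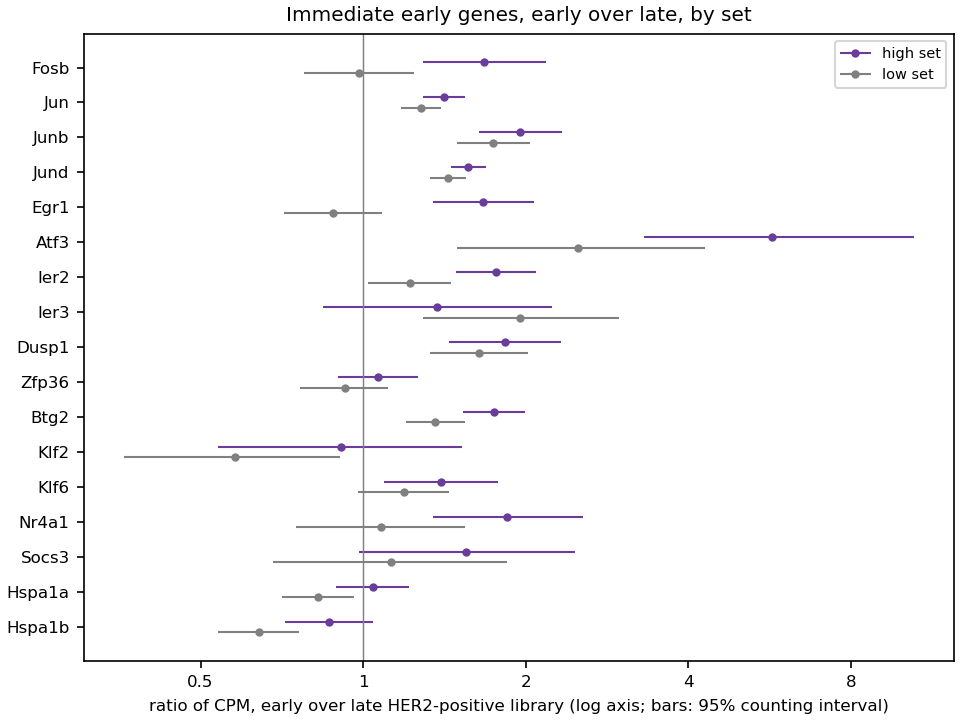
Ratio of CPM in the early over the late HER2-positive library (log axis) with 95% counting intervals, for 17 immediate early genes in the high and the low set. Atf3 has the highest ratio in the high set at 5.72, and the low set value is 2.50.

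The other genes named as higher in the early high set were Pim3, a kinase (2.20), Pde7a, a phosphodiesterase (2.0), Tigd2 (2.0), the cyclin gene Ccnl1 (1.92) and Adssl1, an adenylosuccinate synthase (1.85). Those lower in the early library were led by Ost4, a subunit of the oligosaccharyltransferase, at 30.3 and 94.8 CPM, a ratio of 0.320 (0.212 to 0.472). The mitochondrial genes Atp5k, Tomm7 and Sdhd had ratios of 0.441, 0.470 and 0.480, the chaperone-associated genes Chordc1 and St13 0.405 and 0.464, and the adhesion gene Pvrl3 0.472. Of 27 oxidative phosphorylation genes measured between the high sets, 2 were higher in the early library and 2 lower. Their median log2 ratio was −0.035, so that list went neither way. Scgb1a1, the club cell secretoglobin, was at 1171 and 2627 CPM, a ratio of 0.446 (0.418 to 0.475), and free RNA held 10830 and 14534 CPM of it. Ost4 and Tomm7 were also lower in early free RNA, at 61.1 against 115.9 CPM and at 81.9 against 148.9 CPM. So were Atp5k (37.4 against 63.8 CPM), Sdhd (25.4 against 56.1 CPM), Chordc1 (27.2 against 42.4 CPM) and St13 (87.9 against 118.8 CPM). Pvrl3 was higher there, at 52.2 against 37.3 CPM.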

How the data were processed

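Single-cell RNA libraries of sorted mouse lung cells were used as deposited. The values are unnormalised UMI counts per gene and barcode, written by the authors with matrix software version 3.1.0 per the file headers, with mm10 as the genome build in the submitters' processing notes. No aligner is named in the sources used here. Each of the 3 matrices lists 27998 genes and 6794880 barcodes, not filtered to cells, with 25610135 UMIs in the HER2-negative, 49248126 in the early HER2-positive and 54961019 in the late one.

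Members, gene lists and comparisons were chosen with earlier results of these data known. Counts were summed over the cells of a set in each library and divided by their total (CPM), with exact Poisson intervals, and ratios have exact conditional 95% intervals; all cover counting error only. A gene was measured at 50 or more UMIs over the pair. The genes named in the text had at least 50 CPM in a set in each library and were the 15 highest by the smaller and the 15 lowest by the larger of the 2 libraries' ratios, and the 8 highest and 8 lowest between libraries, leaving out ribosomal, mitochondrial, predicted and rule genes; any list member could also be named. Some genes that the rule or the lists hold are not reported here by name; list counts and medians include them. Barcodes of 1 to 100 UMIs served as free RNA. Doublets were left in for the main values, and an alternative removed the highest Scrublet scores (automatic calls 0.0262% and 0.899%). Motifs were searched in RefSeq upstream windows (GRCm38.p6), and gene positions come from GENCODE M21. Python 3.11.15, scipy 1.17.1 and scanpy 1.11.5 were used, and the ratio and interval code was tested on simulated data.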

Additional observations from a re-analysis of the deposited data

Results flagged for a closer look

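Napsa, which encodes the aspartic protease napsin A of lamellar bodies, had a high over low ratio of 1.066 in the early and 0.927 in the late library, opposite directions in the 2 libraries; the difference was not tested. In the HER2-negative library, which no comparison uses, 9 barcodes passed every filter for alveolar type 2 cells, and they held 58 UMIs of Scd1 and Fabp5 together, with Scd1 at 925 CPM (624 to 1320) and Fabp5 at 863 CPM (574 to 1248). Free RNA of that library held 55.9 CPM of Scd1 and 141 CPM of Fabp5.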

How the results depend on the processing

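No paired analysis was possible because each group holds 1 library. Against 57 higher and 63 lower genes, 18 synthesis genes higher, and 200 higher and 238 lower genes between libraries, a count minimum of 10 gave 203 and 335, and 1142 and 1046 between libraries. Cells thinned to 1000 UMIs gave 4 and 7, 0 synthesis genes (6 measured), and 32 and 60 between libraries, with 686 genes measured against 3773 and sets, ranked again, of 230 and 217 cells (early) and 197 and 281 (late). Ranking by Scd1 alone gave 11 synthesis genes, as did Fabp5 alone. Without the alveolar type 1 limit 107 and 248 of 8514 genes were called, and without cells holding S100a6 36 and 25; both were chosen after seeing the data, as were leaving out the top cell of each gene (59 and 69) and Sftpc from totals (74 and 65). Of 6018 gene ratios recomputed, 14 reversed and 474 moved. Thinning reversed (log2) in the late library Cntrl to 0.34, Acat2 to −0.073, Sqle to −0.30, Lpl to −0.028, Fosb to 0.35 and Egr1 to 0.027, and in the early library Clu to 0.12 and Stard4 to −0.084. Scd1 alone reversed Pfkl (late) to 0.028, and Fabp5 alone Chil1 (late) to −0.22. Without the type 1 limit Cept1 (late) reversed to 0.047, and without S100a6 cells Thbs1, Krt19 and Scgb1a1 (early) to 0.37, 0.44 and −0.12. The cause was not tested. Genes under 50 UMIs were not called in the main values. The count minimum of 10 brought 8419 genes into the high over low comparison.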
